A study of Mus musculus with 16 samples.

Results

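Vstm4, Agt, Kcnk1, Atp1b2, Ephx1, Exoc4, Alcam and Sat1 are 8 genes whose signal differed in one direction between follicles cultured with anti-Müllerian hormone (AMH) and their controls in all 4 pairs of arrays at 12 h, 6 of them above control and Alcam and Sat1 below it. They were picked on that difference, and on the order of its p values, in an earlier look at the same arrays, so every AMH value at 12 h is given here as a description and carries no test. The array held 18 probe sets annotated to these genes alone, of 34945 probe sets with 1 gene symbol, and the 8 genes were part of 12172 genes tested. One direction in 4 of 4 pairs at 12 h was itself met by 17.9% of the genes tested, with 10.2% above control and 7.71% below. The tests below are of the AMH difference at 24 h and of the change of the pair means between times, and neither of these quantities was the basis of the choice. The 24 h arrays did have a part in it, because the p values that ordered the genes at 12 h came from a fit whose spread is shared by all 8 pairs, so each gene has 1 standard error for AMH at both times.

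RNA was measured on 16 Affymetrix mouse arrays in 4 groups of 4, which were AMH for 12 h, control for 12 h, AMH for 24 h and control for 24 h. Preantral to small antral follicles of C57BL/6Tac mice, 8 weeks old by the labels of the samples, were kept in single drops with recombinant AMH at 50 ng/ml or with none. No group was free of gonadotropins, since the medium of all 4 held FSH, the follicle-stimulating hormone, at 80 IU/L, and LH at 10 IU/L. Each experiment pooled the follicles of 8 mice, both arms of a pair were drawn from one pool, and each array held the RNA of 6 to 9 follicles. The p values for AMH therefore measure how its difference from control varied between pairs. Those for time measure the spread of pair means between pools, and neither measures the spread between animals.

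The deposited signals shared a 2% trimmed mean of 150 on every array, their medians lay between 27.8 and 40.2, and log2 signals of arrays of one group correlated at 0.92 to 0.98. Most listed markers of the labelled tissue lay over the signal filter, which left out only probe sets under the 40th percentile of mean log2 signal. Among the lists used here, 14 of 15 granulosa genes (Foxl2 at a mean log2 signal of 9.77, Amhr2 at 10.14), 17 of 18 oocyte genes (Zp3 at 9.41) and 7 of 10 theca genes had a probe set over the signal filter. The lowest of these were Amh at 4.21 for granulosa, close to the filter at 4.18, Pou5f1 at 4.41 for oocyte and Cyp17a1 at 4.83 for theca. The theca genes Lhcgr, Insl3 and Gli1, the granulosa gene Cyp19a1 and the oocyte gene Ddx4 were not tested. Lists of other cells lay over the filter too, with 14 of 15 endothelial, 12 of 12 surface epithelium and 6 of 7 pericyte genes. These counts therefore do not set the labelled tissue apart. Arrays of one pair deviated from their group means in opposite directions in pairs 1 and 4 at 24 h, with correlations of -0.44 and -0.29, and in the same direction in the other 6 pairs, so values without those pairs are given where a result rests on them.

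AMH is a hormone of the transforming growth factor beta family that granulosa cells of small growing follicles secrete. It binds a dedicated type II receptor, encoded by Amhr2, and signals through type I receptors and SMAD proteins shared with the bone morphogenetic proteins; in the mouse ovary it restrains the recruitment of primordial follicles and lowers the response of growing follicles to FSH. The 8 genes do not form one pathway. Vstm4, Agt and Alcam encode proteins of the cell surface or the extracellular space, Kcnk1 and Atp1b2 encode membrane transport proteins, Ephx1 and Sat1 encode enzymes, and Exoc4 encodes a subunit of a vesicle-tethering complex.

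The 250 bases upstream of the annotated start are shown for the 2 genes with the widest difference at 12 h and for Sat1, the 1 gene whose window held GGCGCC, an element bound by the SMADs of the BMP branch. The sequences are RefSeq's for GRCm38.p6, written 5′ to 3′ on the gene's strand, at chr14:32856506-32856755 on the plus strand for Vstm4, chr8:124569707-124569956 on the minus strand for Agt and chrX:155216450-155216699 on the minus strand for Sat1.
Vstm4: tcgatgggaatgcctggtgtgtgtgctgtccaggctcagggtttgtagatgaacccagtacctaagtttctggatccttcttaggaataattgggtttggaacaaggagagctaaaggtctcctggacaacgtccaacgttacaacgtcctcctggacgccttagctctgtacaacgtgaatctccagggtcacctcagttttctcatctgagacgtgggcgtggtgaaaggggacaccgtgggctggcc
Agt: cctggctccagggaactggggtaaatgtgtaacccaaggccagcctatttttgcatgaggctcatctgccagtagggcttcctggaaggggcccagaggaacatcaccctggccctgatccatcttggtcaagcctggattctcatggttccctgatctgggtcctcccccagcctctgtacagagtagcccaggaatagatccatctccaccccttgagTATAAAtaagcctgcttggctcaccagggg
Sat1: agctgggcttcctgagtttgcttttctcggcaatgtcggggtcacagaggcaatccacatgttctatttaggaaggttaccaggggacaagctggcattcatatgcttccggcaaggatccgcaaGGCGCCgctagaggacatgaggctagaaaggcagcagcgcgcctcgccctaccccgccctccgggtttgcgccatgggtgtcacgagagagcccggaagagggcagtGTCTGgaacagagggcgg
Capitals mark matches, on either strand, to GGCGCC (a BMP-type SMAD element), CAGAC (a SMAD box), TGACG (the core of a cAMP response element) and TATAAA. Windows were at hand for 7 of the 8 genes, each ending at 1 start that RefSeq's table uses. For Kcnk1 that start lies inside the gene span given below (window chr8:125994852-125995101), and the Exoc4 window (chr6:33248878-33249127) runs past the first base of its span. GGCGCC lay in 1 of the 7, in Sat1 with its first base 125 bases before the start, against 9.59% of 32851 mouse windows of the same length. CAGAC lay in 3 of the 7 (Kcnk1, Ephx1 and Sat1) against 42.2%, TGACG in 1 (Alcam) against 17.8%, and TATAAA in 2 against 12.4%, in Agt with its first base 30 bases before the start and in Ephx1 at 214. In the printed matches no 2 motifs overlapped, and the Vstm4 window held none of these letters.

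Signals are linear units per probe set, and changes are differences of log2(signal + 1.46), which understates changes near the floor. Of the probe sets of a gene, the one with the highest mean stood for the gene. In bulk follicles, fewer cells of a type and less RNA per cell cannot be told apart.

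Vstm4 (chr14:32856756-32939491 in GRCm38.p6) encodes a single-pass membrane protein with an immunoglobulin V-set domain, from which a secreted peptide is cut. It had the widest difference of the 8 at 12 h. In replicates 1 to 4 its signal was 40.5, 66.2, 70.9 and 59.0 with AMH at 12 h, against 9.99, 18.7, 19.1 and 16.8 in the paired controls. Every AMH array lay above every control array, and the control mean, at a log2 of 4.10 ± 0.40 (SD, n = 4) against 5.89 ± 0.35 with AMH, lay under the level of the signal filter (a log2 of 4.18). The 4 pair differences were 1.87, 1.74, 1.82 and 1.73, a mean of 1.79 or 3.46-fold, with an SD of 0.068 between pairs.

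In the 24 h arrays the Vstm4 signal was 130.3, 129, 184 and 77.9 with AMH, against 61.7, 95.3, 119.9 and 128 in controls. The groups overlapped, with pairs 1 to 3 above 0 and pair 4 below it, at 1.06, 0.43, 0.61 and -0.71. The change of 0.35 (SE 0.25, 95% interval -0.21 to 0.91) did not pass limma's test (adjusted p = 1.00). Without replicate 1 the change at 24 h was 0.11, without replicate 4 it was 0.70 and without pairs 1 and 4 at 24 h it was 0.52. Group means ran, from low to high, control at 12 h, AMH at 12 h, control at 24 h and AMH at 24 h; the arrays of control at 12 h did not overlap the next group, while the 3 higher groups each overlapped their neighbour.

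Agt (chr8:124556587-124569706) encodes angiotensinogen, the secreted precursor that renin and angiotensin-converting enzyme turn into angiotensins. At 12 h its signal was 64.0, 53.8, 31.4 and 79.8 with AMH, against 34.7, 12.0, 13.0 and 19.3 in controls. The groups overlapped by 1 array on each side, since AMH in replicate 3 lay below the control of replicate 1. Pair differences were 0.86, 2.04, 1.19 and 1.97, with a mean of 1.51, or 2.85-fold.

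At 24 h Agt had a signal of 69.8, 262, 109.7 and 111 with AMH, against 73.4, 225, 52.3 and 49.4 in controls. Both arrays of replicate 2 stood well above all others at that time, and the pair differences were -0.072, 0.22, 1.05 and 1.14, with pair 1 just below 0. The change was 0.58 (SE 0.27, 95% interval -0.018 to 1.19; limma adjusted p = 1.00, unadjusted p = 0.056). The group means stood in the same order as those of Vstm4, with every neighbour overlapping.

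Alcam (chr16:52248996-52453081) encodes an immunoglobulin-type adhesion molecule, CD166, that binds itself and the lymphocyte receptor CD6. It was below control in every pair at 12 h, with a signal of 294, 771, 423 and 478 with AMH, against 640.2, 1024, 606 and 824 in controls. The groups overlapped, because AMH in replicate 2, from the pool with the highest Alcam signal in both arms, exceeded the controls of replicates 1 and 3. Pair differences were -1.12, -0.41, -0.52 and -0.78, with a mean of -0.71. After 24 h its signal was 300.0, 317, 262 and 318 with AMH, against 316, 402, 263 and 309 in controls. All 8 arrays lay below every control array at 12 h, and the AMH change was -0.096 (SE 0.13, 95% interval -0.38 to 0.19; limma adjusted p = 1.00).

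Of the other 4 Alcam probe sets, 3 shared the 12 h direction in 4 of 4 pairs. The differences of 1426300_at were -0.82, -0.10, -0.093 and -0.68, those of 1426301_at -1.23, -0.63, -0.32 and -1.04 and those of 1437467_at -1.50, -0.21, -0.41 and -0.69, and in each of these pair 1 was the lowest. The fourth, 1443086_at, was the 1 probe set of the 18 under the filter, with a mean signal of 6.30, and its pairs went both ways, at 0.90, -0.83, 1.14 and -1.26 at 12 h and -1.25, -0.74, 0.56 and -0.12 at 24 h. The pairs of 1437466_at at 24 h were -0.075, -0.34, -0.0093 and 0.043, those of 1426300_at -0.28, -0.074, -0.23 and 0.27 and those of 1437467_at -0.41, 0.029, -0.060 and 0.24, 3 below 0 and 1 above for the first 2 and 2 on each side for the last. At 24 h the probe set 1426301_at was below control in 4 of 4 pairs, at -0.71, -0.033, -0.49 and -0.11, with a change of -0.34 (SE 0.16) and an adjusted p of 0.975 by limma over all 45037 probe sets without a filter.

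**Figure D1:**
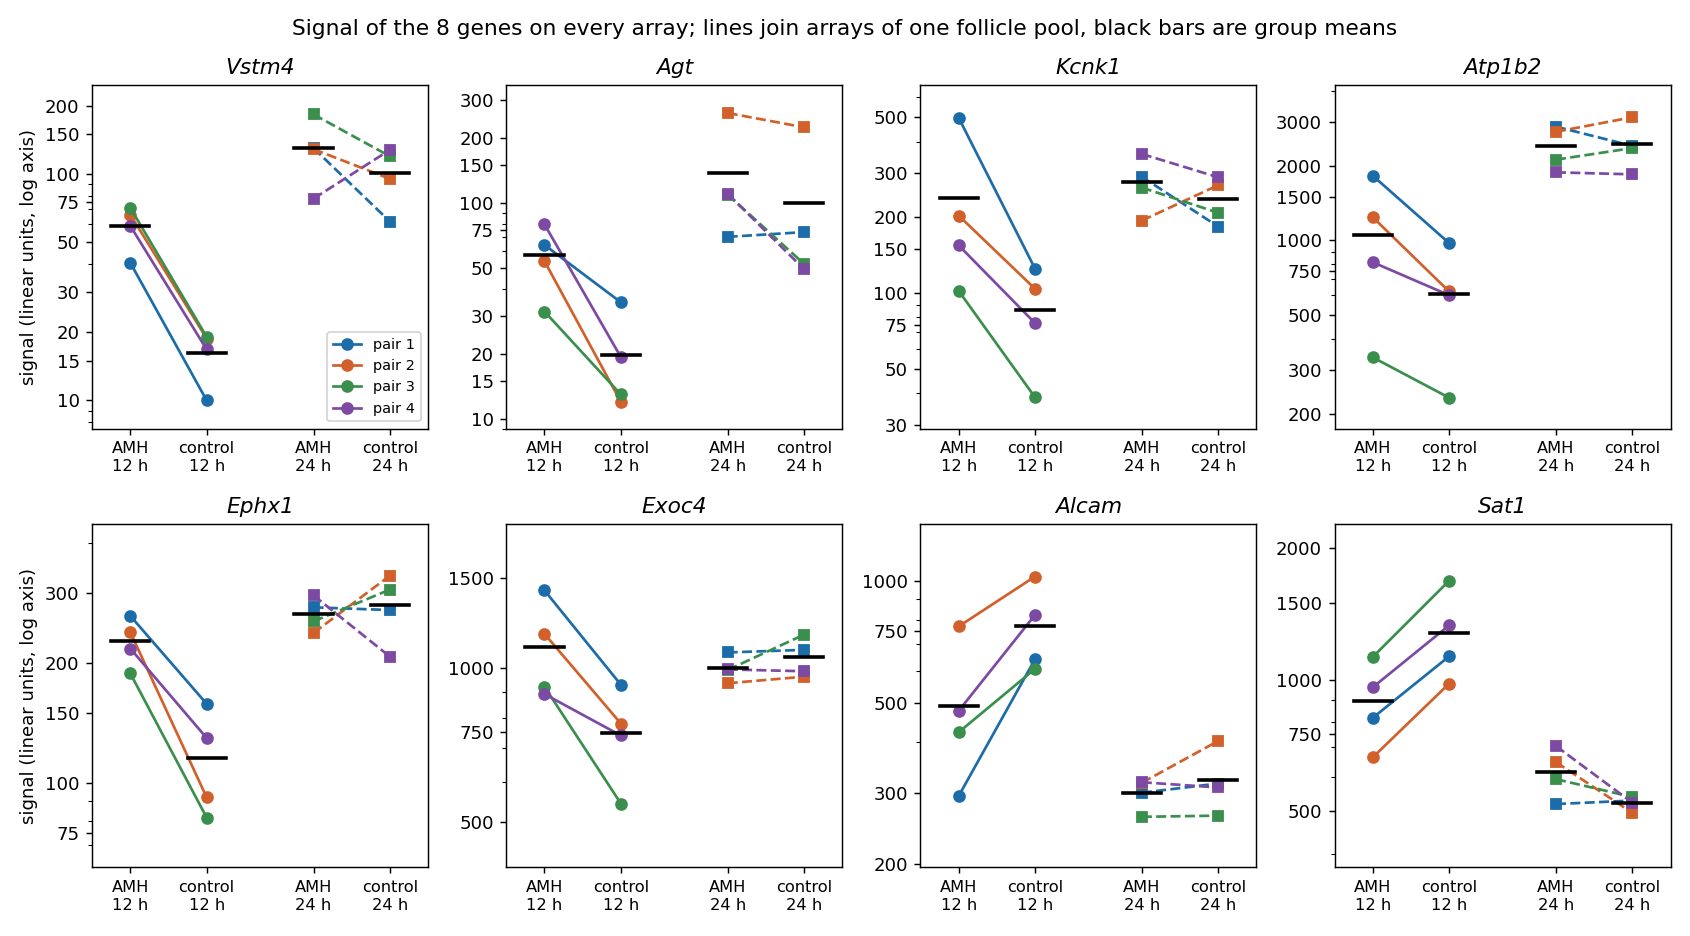
Signal of the probe set standing for each gene on each of the 16 arrays (log axis, linear signal units), with AMH left of control at 12 h (circles) and at 24 h (squares); lines join arrays of one follicle pool and black bars are means of 4 arrays. At 12 h the points of Vstm4 lie between 40.5 and 70.9 with AMH and between 9.99 and 19.1 in controls, and at 24 h each gene has lines of both slopes; pools of one number at 12 h and 24 h are not stated to be the same.

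Kcnk1 (chr8:125993655-126030685) encodes TWIK-1, a two-pore-domain channel that carries background potassium current. At 12 h its signal was 498, 203, 102 and 155 with AMH, against 125, 104, 38.5 and 76.0 in controls. Pools differed widely, since replicate 1 was the highest and replicate 3 the lowest in both arms, so the groups overlapped although each pair differed by 1.98, 0.96, 1.37 and 1.01 (mean 1.33, 2.52-fold). The second probe set, 1455896_a_at, gave 1.32, -0.19, 0.76 and 0.46, and so did not share the direction in pair 2. After 24 h its signal was 289.9, 194, 263 and 357 with AMH, against 184, 269, 209 and 289 in controls. Here the pairs were 0.65, -0.46, 0.33 and 0.31, with pair 2 below 0 and the others above it, and the change was 0.21 (SE 0.21, 95% interval -0.25 to 0.67; limma adjusted p = 1.00). It was 0.058 without replicate 1, 0.43 without replicate 2 and -0.067 without pairs 1 and 4 at 24 h. The pairs of 1455896_a_at at 24 h were -0.039, -0.40, 0.16 and 0.0029.

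Atp1b2 (chr11:69599728-69605978) encodes the beta-2 subunit of the sodium pump, which also acts as an adhesion molecule on glia. Both of its probe sets were above control in 4 of 4 pairs at 12 h. The signal of 1422009_at was 1821, 1239, 337 and 816 with AMH, against 974, 622, 232 and 601 in controls, with the lowest value of each arm in replicate 3. Pair differences were 0.90, 0.99, 0.54 and 0.44 (mean 0.72) for this probe set and 0.96, 1.06, 0.72 and 0.71 (mean 0.86) for 1435148_at. After 24 h the signal of 1422009_at was 2873, 2740.1, 2116 and 1880.2 with AMH, against 2404, 3136, 2355 and 1846 in controls. Every 24 h array exceeded every 12 h array, while the pair differences were 0.26, -0.19, -0.15 and 0.027, 2 above 0 and 2 below. The AMH change at 24 h was -0.016 (SE 0.12, 95% interval -0.27 to 0.24; limma adjusted p = 1.00), and its sign turned with scaling and with the replicates used. The probe set 1435148_at was above control in 4 of 4 pairs at 24 h, by 0.13, 0.058, 0.19 and 0.030 (change 0.10, SE 0.098; limma adjusted p = 0.989 over all probe sets).

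Ephx1 (chr1:180989556-181017569) encodes microsomal epoxide hydrolase, which opens reactive epoxides during detoxification. At 12 h its signal was 262, 238, 188 and 217 with AMH, against 158, 91.9, 81.8 and 129 in controls. The arms did not overlap, and the pair differences were 0.73, 1.36, 1.19 and 0.74 (mean 1.00, 2.01-fold). With 24 h of culture the signal was 275, 238, 254 and 295 with AMH, against 271, 331, 305 and 207 in controls. Pair differences were 0.023, -0.47, -0.26 and 0.51, 2 on each side of 0, and the change of -0.052 (SE 0.18, 95% interval -0.44 to 0.34; limma adjusted p = 1.00) did not pass. Without pairs 1 and 4 at 24 h the change was -0.37, which did not pass either.

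Sat1 (chrX:155213126-155216449) encodes spermidine/spermine acetyltransferase, the enzyme that starts the breakdown of polyamines. Its signal at 12 h was 818, 664, 1127 and 961 with AMH, against 1131, 979, 1683 and 1331 in controls. The arms overlapped, since pools ranged more widely than the arms differed, yet the pair differences were close to one another at -0.47, -0.56, -0.58 and -0.47 (mean -0.52, SD 0.059 between pairs). After 24 h it was 519.5, 648, 592 and 705 with AMH, against 529, 496, 539 and 523 in controls. The difference then had the other sign in pairs 2 to 4, at -0.027, 0.38, 0.13 and 0.43. The change at 24 h was 0.23 (SE 0.098, 95% interval 0.013 to 0.45) and did not pass over all genes (limma adjusted p = 1.00); Sat1 was the 1 gene of the 8 with an unadjusted p under 0.05, at 0.0396, which 4.07% of the genes tested had. That unadjusted p was 0.114 with only the 24 h arrays in the fit, 0.186 without the pairs as a block, 0.180 without replicate 2, 0.0736 without replicate 3 and 0.198 without replicate 4.

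Exoc4 (chr6:33249090-33973979) encodes SEC8, a subunit of the exocyst, which tethers secretory vesicles to the plasma membrane. At 12 h the signal of 1422685_at was 1419, 1167, 920.2 and 890.2 with AMH, against 928, 779.8, 544 and 739 in controls, and the pairs differed by 0.61, 0.58, 0.76 and 0.27 (mean 0.55). The other 4 probe sets had smaller mean differences at 12 h. Only 1422686_s_at among them was above control in 4 of 4 pairs, by 0.35, 0.12, 0.56 and 0.051; 1422684_a_at, 1431062_a_at and 1453977_at had 3 pairs above 0 and 1 below, with pairs of -0.16, 0.19, 0.62 and 0.14 for the first, 0.23, 0.14, -0.066 and 0.44 for the second and 0.25, 0.11, -0.024 and 0.090 for the third. With the mean of all Exoc4 probe sets in place of the brightest, the 12 h change was 0.26. At 24 h the signal of 1422685_at was 1074, 935, 992 and 995 with AMH, against 1086, 963, 1163 and 986 in controls, with pairs of -0.017, -0.042, -0.23 and 0.012 and a change of -0.069 (SE 0.098, 95% interval -0.28 to 0.15; limma adjusted p = 1.00). The pairs at 24 h were 0.091, -0.12, -0.41 and 0.16 for 1422686_s_at, 0.28, 0.15, -0.15 and 0.14 for 1422684_a_at, 0.098, -0.35, -0.17 and -0.41 for 1431062_a_at and -0.67, 0.25, -0.15 and -0.57 for 1453977_at, each with pairs on both sides of 0. By 1422685_at, Exoc4 was the 1 gene of the 8 whose AMH mean at 12 h (log2 10.08 ± 0.32) was the highest of the 4 groups. It lay 0.044 above that of control at 24 h, with overlapping arrays. The means of 1422686_s_at, 1422684_a_at and 1431062_a_at were lower with AMH at 12 h than in controls at 24 h, and that of 1453977_at was higher.

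**Figure D2:**
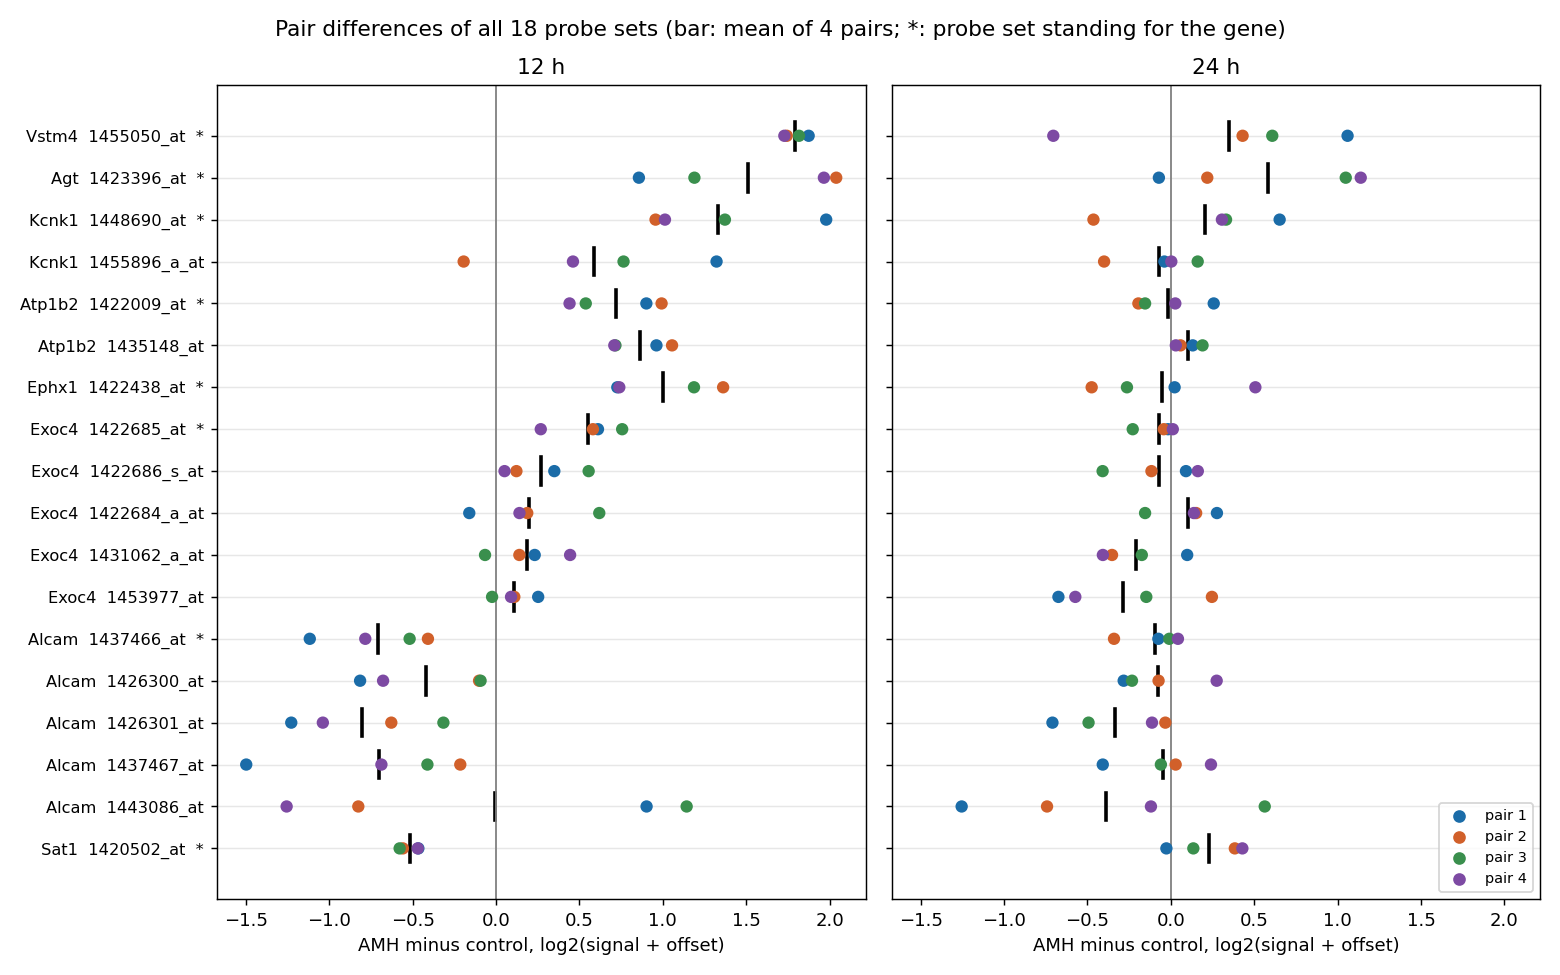
Difference between AMH and control in log2(signal + offset) for each of the 18 probe sets, at 12 h (left) and 24 h (right); points are the 4 pairs, bars their mean, and asterisks mark the probe set standing for the gene. At 12 h 13 of the 18 had all pairs on one side of 0, which is what the genes were chosen for, and at 24 h 2 did.

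Across the 18 probe sets, 13 had one direction in 4 of 4 pairs at 12 h, against 15.7% of all 45037 probe sets without a filter. Of the 5 that did not, 1 belonged to Kcnk1, 3 to Exoc4 and 1 to Alcam. At 24 h, 2 of the 18 had one direction (1435148_at of Atp1b2 above control and 1426301_at of Alcam below), against 11.1% of all probe sets, and 0 of the 18 and 0% of all probe sets passed limma's test there, with 1 of the 18 (that of Sat1) at an unadjusted p under 0.05. Between times, 10 of the 18 passed, against 10.3%, and in the fit of the probe sets over the filter 11 of 17 passed, against 18.5% of 27022. Probe sets of one gene read the same RNA and are not replicates.

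After 24 h, none of the 8 genes passed limma's test of AMH against control, with 1 (Sat1) at an unadjusted p under 0.05, while 2 of all genes tested (0.0164%) passed. None of the 8 had one direction in 4 of 4 pairs, against 9.39% of all genes (5.95% higher and 3.44% lower). None had arms without overlap, against 2.05%. At 12 h, Vstm4 and Ephx1 had, against 2.61%, but the 8 genes were chosen on the 12 h differences. The sign of the mean change was that of 12 h in 4 of the 8 (Vstm4, Agt, Kcnk1 and Alcam) and the opposite in the other 4, and among all 2183 genes with one direction in every 12 h pair it was the same in 46.6%, and in 4.4% of them all 4 pairs at 24 h kept the direction. The 12 h means were the basis of the choice, and the difference between the AMH changes at the 2 times was not tested. When each array was centred on its median, the median change of all genes at 24 h moved to 0.12, and Atp1b2, Ephx1, Exoc4 and Alcam then stood between 0.020 and 0.10.

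Averaged over both arms of a pair, 6 of the 8 genes changed between 12 h and 24 h of culture. Vstm4, Agt, Atp1b2 and Ephx1 were higher at 24 h and Alcam and Sat1 were lower. The pair means of the 2 times did not overlap for 6 of the 8, against 28.1% of all genes. By limma on the 8 pair means, 23.9% of all genes passed, 12.1% higher and 11.8% lower at 24 h, and with arrays centred on their medians 31.0% of the calls were higher against 50.6% without centring. The members were chosen with the spread of these arrays in view, so their count is not an independent sample of it, and time is tied to separate cultures whose pools the labels do not link.

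Vstm4 rose to a mean log2 signal of 6.80 ± 0.31 (SD, n = 4 pairs) at 24 h, against 5.00 ± 0.37 at 12 h, a change of 1.81 (SE 0.22, limma adjusted p = 0.000684). Agt rose to 6.66 ± 0.85, against 5.05 ± 0.53 at 12 h, by 1.61 (SE 0.40, limma adjusted p = 0.0168), and this call ended without replicate 4 (adjusted p = 0.0529). Atp1b2 rose to 11.22 ± 0.29, against 9.44 ± 0.95 at 12 h, by 1.78 (SE 0.38, limma adjusted p = 0.00929), and its second probe set had a change of 1.82. It was the 1 gene of the 8 in which no single array of 24 h overlapped those of 12 h, a condition that 6.1% of all genes met. Ephx1 rose to 8.08 ± 0.084, against 7.32 ± 0.30 at 12 h, by 0.76 (SE 0.14, limma adjusted p = 0.00486).

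Alcam fell to 8.28 ± 0.18 at 24 h, against 9.21 ± 0.45 at 12 h, with a change of -0.94 (SE 0.20, limma adjusted p = 0.00807) and an adjusted p of 0.059 without replicate 4. The next 3 probe sets of Alcam had changes of -1.58, -1.34 and -1.47 and passed over all probe sets, of which 10.3% did. Sat1 fell to 9.15 ± 0.086, against 10.04 ± 0.33, with a change of -0.89 (SE 0.14, limma adjusted p = 0.00238). Kcnk1 had 7.98 ± 0.24 at 24 h, against 6.99 ± 0.82 at 12 h, a change of 0.99 (SE 0.34) that just missed the threshold (limma adjusted p = 0.0579) and passed without replicate 1 (adjusted p = 0.0232). Exoc4 had 10.00 ± 0.091, against 9.80 ± 0.30, a change of 0.20 (95% interval -0.10 to 0.50; limma adjusted p = 0.323). Without pairs 1 and 4 at 24 h, 3 of the 8 passed (Vstm4, Agt and Sat1), where 803 of all 12172 genes did. In that fit Atp1b2, Ephx1 and Alcam had limma adjusted p values of 0.0697, 0.0504 and 0.0785.

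**Figure D3:**
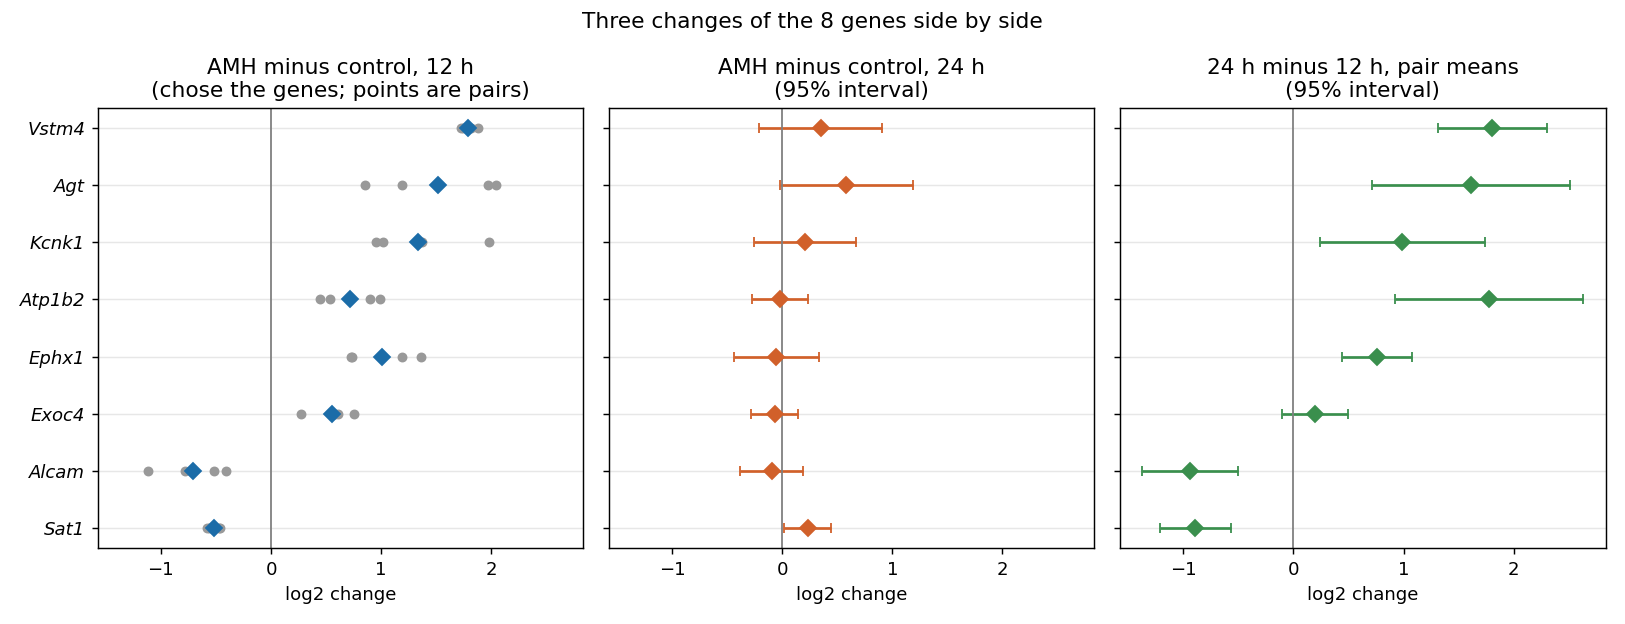
Log2 changes of the 8 genes: AMH minus control at 12 h (grey points are the 4 pairs that chose the genes, diamonds their mean), AMH minus control at 24 h, and 24 h minus 12 h of the pair means, the last 2 with 95% intervals from limma. At 24 h the AMH intervals include 0 for every gene except Sat1 (0.013 to 0.45), and the time intervals include 0 for Exoc4 alone (-0.10 to 0.50).

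Both the AMH difference at 12 h and the time change use the 12 h control arrays, and their values for each gene stand side by side. The AMH difference at 12 h and the time change were 1.79 and 1.81 for Vstm4, 1.51 and 1.61 for Agt, 1.33 and 0.99 for Kcnk1, and 0.72 and 1.78 for Atp1b2. They were 1.00 and 0.76 for Ephx1, 0.55 and 0.20 for Exoc4, -0.71 and -0.94 for Alcam, and -0.52 and -0.89 for Sat1. They are given as values only.

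The order of the group means is a description, since the choice fixed the order of the 12 h groups. From low to high, Kcnk1 had the order of Vstm4 and Agt, and Atp1b2 and Ephx1 had control at 12 h, AMH at 12 h, AMH at 24 h and control at 24 h. Exoc4 had control at 12 h, AMH at 24 h, control at 24 h and AMH at 12 h, Alcam had AMH at 24 h, control at 24 h, AMH at 12 h and control at 12 h, and Sat1 had control at 24 h, AMH at 24 h, AMH at 12 h and control at 12 h. Neighbours in these orders overlapped in single arrays, except AMH and control at 12 h for Ephx1, AMH at 24 h and AMH at 12 h for Atp1b2, and AMH at 24 h and control at 12 h for Exoc4.

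Listed genes were tested only where a probe set of their own lay over the signal filter. Calls with time in these lists stand beside 12.1% of all genes called higher at 24 h and 11.8% called lower. Around Agt, 12 of 15 renin-angiotensin genes had a probe set on the array and 7 were tested. None passed for AMH at 24 h (median change -0.064, against 0.01 over all genes), and 3 were higher at 24 h than at 12 h: Agt, Agtrap, a partner of the angiotensin receptor, at 0.72 (SE 0.17, limma adjusted p = 0.0126) and the peptidase Mme at 0.69 (SE 0.20, adjusted p = 0.0331). Ace, the converting enzyme, had changes of -0.40 with AMH at 12 h and -0.064 at 24 h. The median time change of the list was 0.46, against -0.012 over all genes. The peptidase Anpep had a change of -0.37 with AMH at 24 h, and Agt and Anpep had the smallest p values of the list there.

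Around Kcnk1, 6 of 14 two-pore potassium channels were tested, with a median AMH change at 24 h of 0.41 and none past the threshold. The smallest p values at 24 h were those of Kcnk2 (TREK-1), with a change of 0.82 (SE 0.29, limma adjusted p = 0.967), and Kcnk6 (TWIK-2), with 0.61. Kcnk3 (TASK-1) rose by 2.22 (SE 0.40, limma adjusted p = 0.00395) and Kcnk15 by 0.90 (adjusted p = 0.0462) between 12 h and 24 h. Around Atp1b2, 8 of 14 sodium pump and FXYD genes were tested, and none was called for AMH at 24 h (median 0.14). Besides Atp1b2, the pump regulator Fxyd1 rose with time, by 1.36 (SE 0.18, limma adjusted p = 0.000956). Fxyd1 had AMH changes of 0.70 at 12 h and 0.51 at 24 h (unadjusted p = 0.0228, limma adjusted p = 1.00). The other beta subunits, Atp1b1 and Atp1b3, had AMH changes at 24 h of 0.21 and 0.069, and time changes of -0.21 and -0.15 that did not pass.

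Around Ephx1, 13 of 18 detoxification genes were tested. For AMH at 24 h 0 passed (median -0.052), and 5 were higher and 3 lower at 24 h than at 12 h, against 12.1% and 11.8% of all genes. The glutathione transferase Gstm1 rose by 0.97 and the retinaldehyde dehydrogenase Aldh1a1 by 1.12, the quinone reductase Nqo1 had a change of -0.84, and the soluble hydrolase Ephx2 had 0.44, which did not pass. Cyp1b1 and Mgst2 were also called higher and Gsta4 and the aryl hydrocarbon receptor Ahr lower. The smallest p values for AMH at 24 h were those of Ephx2 and Mgst1, with changes of -0.25 and -0.19.

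Around Sat1, 12 of 16 polyamine genes were tested, and 0 passed for AMH at 24 h (median 0.032). With time 2 were higher and 5 lower, against 12.1% and 11.8% of all genes. Azin1, the antizyme inhibitor, had a time change of -0.44 and the transporter Atp13a3 of -0.39, while Sat2 rose by 1.10, each past the threshold. Smox and Srm were also called lower, and Atp13a2, which moves polyamines out of lysosomes, higher. For AMH at 24 h, Sat1 and Atp13a2 had the smallest p values, and the change of Atp13a2 was 0.30.

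Around Exoc4, all 14 exocyst genes and small GTPase partners were measured; the median change was -0.061 for AMH at 24 h with none called (Rab10 at -0.14 and Exoc3 at 0.16 had the smallest p values), and with time only Rala passed, at -0.32 (limma adjusted p = 0.0306). Around Alcam, 12 of 18 adhesion molecules of the immunoglobulin fold were tested, and none passed for AMH at 24 h (median 0.032). Nrcam at -1.85, Cadm1 at -1.29 and Nectin3 at -0.41 were lower at 24 h along with Alcam. Icam1 and Vcam1, with the smallest p values for AMH at 24 h, had changes of 0.26 and 0.35. Around Vstm4, 4 of 11 related V-set genes were tested, with a median AMH change of 0.28 at 24 h and none called. Vstm2b at 0.50 had the smallest p there. With time, Vstm4 was the 1 of the 4 called. At an unadjusted p under 0.05 for AMH at 24 h, these lists held Kcnk2, Kcnk6, Fxyd1 and Sat1 and no other gene.

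The genes whose log2 signal over the 16 arrays was most like that of Vstm4 were Mmd2 (Pearson r = 0.95), the collagen-binding receptor Antxr1 (0.94) and decorin, Dcn (0.94). For Agt they were Tmem176b (0.96), Lrpap1 (0.90) and Man2a2 (0.90), for Kcnk1 the growth factor Pdgfc (0.93), Lztfl1 (0.92) and Pknox2 (0.92), and for Atp1b2 the metalloproteinase Mmp11 (0.97), Nrip2 (0.96) and Plxdc2 (0.96). Ephx1 was followed most closely by Ap5z1 (0.92), the nucleotide receptor P2ry6 (0.90) and Dync2li1 (0.90), Exoc4 by Agps (0.92), Rfx7 (0.90) and Zfp612 (0.89), Alcam by neurotensin, Nts (0.88), Mis18a (0.87) and Rab35 (0.87), and Sat1 by the ERK feedback inhibitor Spry2 (0.98), Niban2 (0.95) and Syde1 (0.94). These are descriptions over arrays that share pools, times and the choice of the 8 genes.

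In the same pairs, 2 of the lists of cell type markers had one direction at 12 h. The mean of 14 endothelial genes was below control in all 4 pairs at 12 h, with differences of -0.44, -0.32, -0.41 and -0.29, with 13 of the 14 genes below 0, and their summed signal ranged over 1338 to 3681 with AMH and over 1746 to 4889.6 in controls. The mean of 12 surface epithelium genes was below control in all 4 pairs too, with differences of -0.14, -0.33, -0.25 and -0.35, with 11 of 12 genes below 0 and summed signals of 4477 to 7407 with AMH and 5122 to 8462 in controls. Sox17, 1 of the 15 endothelial genes, lay under the filter, and all 12 surface epithelium genes lay over it. The choice of the 8 genes fixed their direction in these pairs, so whether it was that of the lists carries no information. The part of these lists in the values of the 8 genes was not tested.

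The lists of granulosa, oocyte, theca, stroma, pericyte and immune genes had pairs on both sides of 0 at 12 h. Granulosa means differed by 0.55, 0.063, 0.25 and -0.49 in pairs 1 to 4, stroma and smooth muscle means by 0.77, 0.25, -0.20 and 0.012, and oocyte means by -0.65, -0.027, -0.96 and 1.00. The 12 h difference of Vstm4 lay between 1.73 and 1.87 over the same pairs. The gene was picked on those differences and their p values, so this narrow range is no contrast to the lists. Over all arrays of both times, Vstm4 correlated at 0.77 with the stroma mean, 0.72 with theca and 0.68 with granulosa. With the pericyte, oocyte, immune, endothelial and surface epithelium means it correlated at 0.40, -0.13, -0.13, -0.13 and -0.38. Some other genes of the 8 had wider correlations. With the granulosa mean they were 0.86 for Atp1b2 and -0.85 for Sat1. With the endothelial mean they were -0.79 for Exoc4, -0.76 for Kcnk1 and -0.68 for Atp1b2, against 0.60 for Sat1 and 0.23 for Alcam. With the surface epithelium mean they were 0.67 for Sat1 and -0.65 for Exoc4. The part of these lists in the 12 h differences of Vstm4 and the other genes was not tested. At 24 h the granulosa means differed by 1.20, -0.11, 0.11 and -0.60 in pairs 1 to 4, and the oocyte means by 1.06, -0.17, 0.028 and -1.52. Both were widest in pairs 1 and 4, where Vstm4 differed by 1.06 and -0.71, and their part in its 24 h values was not tested. The stroma mean at 24 h was above control in 4 of 4 pairs, by 0.58, 0.93, 0.36 and 0.12, with 13 of 13 genes above 0. Its summed signals were 8781 to 12570.2 with AMH and 7093 to 9928 in controls. The immune list had 10 of 10 genes above 0 at 24 h and 3 of 4 pairs above 0, at -0.56, 0.92, 0.99 and 1.43. The endothelial list, below control at 12 h, had 13 of 14 genes above 0 at 24 h, a median of 0.30 and pairs of 0.17, 0.69, 0.32 and -0.11, and the surface epithelium list had 5 of 12 genes above 0 and pairs of 0.059, -0.61, -0.010 and 0.39. Between times, 11 of 14 granulosa and 8 of 13 stroma genes passed as higher at 24 h, and 5 of 12 surface epithelium genes as lower, against 12.1% and 11.8% of all genes, beside the rise of Vstm4, Agt, Atp1b2 and Ephx1 and the fall of Alcam and Sat1; their part in those changes was not tested.

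**Figure D4:**
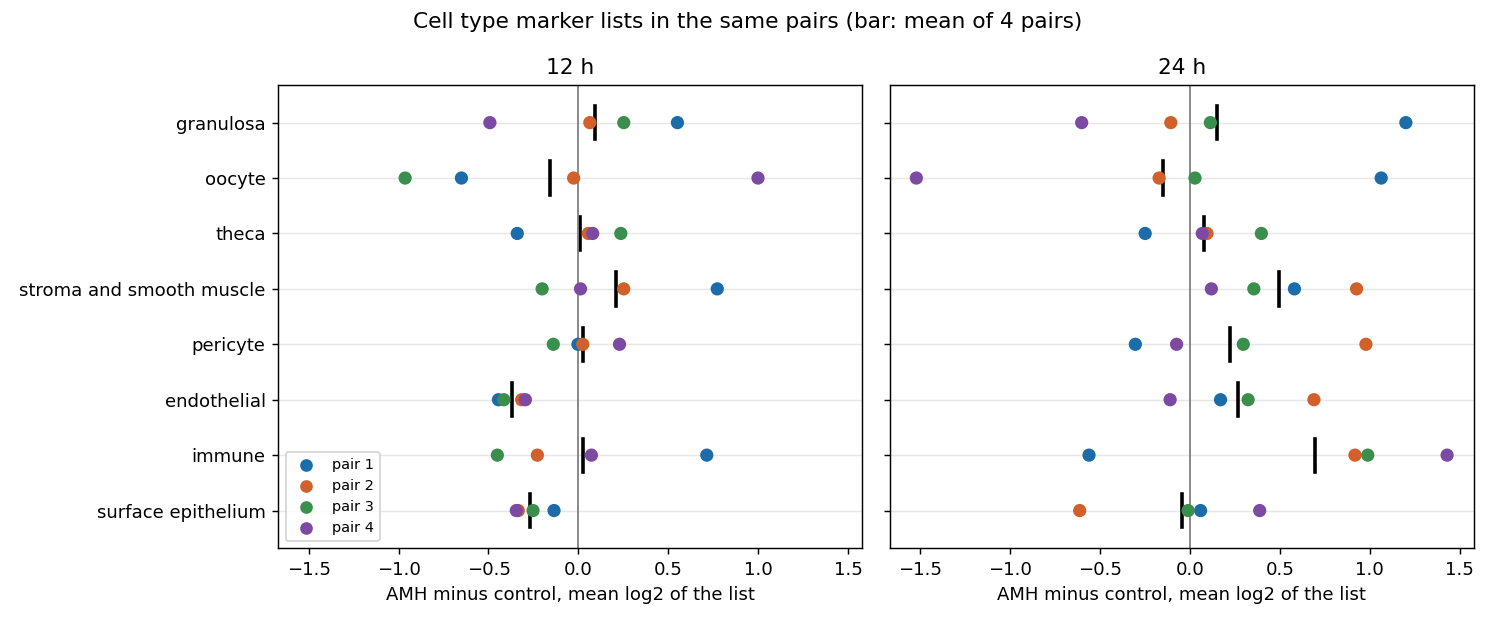
Difference between AMH and control in the mean log2 signal of each marker list, at 12 h (left) and 24 h (right); points are the 4 pairs and bars their mean. At 12 h the endothelial points lie between -0.44 and -0.29 and the surface epithelium points between -0.35 and -0.14, all below 0, while the oocyte points spread from -0.96 to 1.00.

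In the order of the 12 h fit among genes with one direction in every pair, the 8 genes filled 8 of the first 10 places. The other 2 were Igfbp5, an insulin-like growth factor binding protein, with a mean difference of -1.09, and Mmp11, with 0.83. Sat1 was the last inside, at place 10, with its smallest pair difference at -0.47. Pyroxd2, the next outside, had pair differences of 1.08, 0.70, 1.46 and 0.53, a mean of 0.94, wider than those of Sat1, and a change of -0.40 at 24 h. The smallest pair difference of any of the 8 at 12 h was 0.27, for Exoc4 in pair 4.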

How the data were processed

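Arrays were Affymetrix mouse arrays hybridised with cDNA amplified from 5 ng of RNA, per the labels' protocols. The deposited values are intensities, 1 linear signal for each probe set; the submitters' processing notes name MAS5 for them, and its version and scaling are not given in the sources used here, and the shared trimmed mean shows that arrays had been scaled. Signals were turned into log2(signal + 1.46), the offset being the 10th percentile. Of 45101 probe sets, 64 controls were left out; 34945 had 1 gene symbol, 932 several and 9160 none in the annotation supplied. Probe sets at or above the 40th percentile of mean log2 signal (4.18, a signal of 16.6) were kept, and the brightest stood for its gene.

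AMH changes came from limma 3.58.1 (R 4.3.3) with the 8 pairs as a block, since the labels state that samples compare in pairs from one pool; deviations of paired arrays had correlations between 0.21 and 0.56 in the 12 h pairs, and of -0.44, 0.33, 0.20 and -0.29 in the 24 h pairs. Time changes came from limma on the 8 pair means. Variances were moderated along the mean, p values adjusted by Benjamini-Hochberg over all genes with a threshold of 0.05. The members and lists were chosen with earlier results of these data known. Named list genes are up to 4 past the threshold by smallest p, and where none passed, 2 are given as values. Ace, Atp1b3, the further calls of the detoxification and polyamine lists, Sox17, Foxl2, Amhr2 and Zp3 were named after their values were seen. So were Amh, Pou5f1, Cyp17a1, Cyp19a1, Ddx4, Lhcgr, Insl3 and Gli1. Like genes are the 3 with the highest r. The fits were also run on simulated data in which arrays of a pair shared a deviation, unlike pairs 1 and 4 at 24 h. No result here rests on that run. Figures used matplotlib 3.10.9 in Python 3.11.15. Alternatives were other offsets, filters, scalings, probe set rules, blocks, moderation and left-out replicates; leaving out pairs 1 and 4 at 24 h was chosen after the data were seen.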

Additional observations from a re-analysis of the deposited data

How the results depend on the processing

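The AMH comparison at 24 h called 2 genes, none of the 8, and 496 genes had an unadjusted p under 0.05. By limma it called 0 genes without a filter, with quantile normalization, with every probe set as its own row, with the mean of the probe sets, with only the 24 h arrays and without the replicate block, where 341 to 1282 genes had an unadjusted p under 0.05, and 0 to 1 when each replicate was left out. For the 8 genes at 24 h, 115 of 126 alternative values kept their sign and none passed. With median centring the change turned to 0.10 for Atp1b2, 0.064 for Ephx1, 0.047 for Exoc4 and 0.020 for Alcam. For Atp1b2 it was 0.055 with quantile normalization and 0.043 with the mean of its probe sets. Without pairs 1 and 4, which was added once the arrays had been looked at, the change at 24 h of Kcnk1 was -0.067. In that setting it was 0.52 for Vstm4, 0.63 for Agt, -0.17 for Atp1b2 and -0.37 for Ephx1. It was -0.14 for Exoc4, -0.18 for Alcam and 0.26 for Sat1. Leaving out each replicate gave -0.11 to 0.043 for Atp1b2 and -0.24 to 0.089 for Ephx1. The cause of these turns was not tested.

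The time comparison called 2915 of 12172 genes, 4991 of 27022 with every probe set as its own row, 803 without pairs 1 and 4 at 24 h and 1337 to 2100 when each replicate was left out; fewer pairs were fitted in the last 2. With the replicate number as a replicate block across times it called 2967, and 6 of the 8 genes passed with that pairing too. Kcnk1 also passed with the mean of its probe sets (adjusted p = 0.0367) and with pairs ignored (0.015). No time change of the 8 changed sign. At 12 h the sign of the AMH change was what chose the genes, so that it held in the alternatives is no check. The 12 h change of Vstm4 was 1.22 with an offset of 16, which shrinks low signals. That of Exoc4 was 0.26 with the mean of its probe sets. Vstm4 and Agt had no value with the filter at the 60th percentile. The low signals of Vstm4 and Agt in 12 h controls limit the precision of their size, and 4 pairs limit all tests.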
